A study of Mus musculus with 4 samples.

Results

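Genes of the Wnt pathway were examined in mouse embryonic fibroblasts with and without Pf1, the PHD finger protein encoded by Phf12 and a partner of Sin3 and histone deacetylase corepressor complexes. The members were a list of 39 genes for Wnt ligands, R-spondins, receptors, antagonists, and intracellular and nuclear pathway components, matched by gene symbol to the array's probe annotation. Of these, 38 had at least 1 probe set of their own, out of 18193 genes measured, and no probe set was named for Tcf7. All lines were primary fibroblasts from the torso of embryos at day 13.5 or 14.5, with head and red organs taken off, kept at 6% oxygen and harvested at passage 2 to 3. The knockout (KO) group held lines 2 and 4, labelled Pf1 -/-, and the wild-type (WT) group lines 5 and 6, labelled Pf+/+, all with the line prefix 7706 and 1 array each. The Pf1 deletion is not limited to a cell type by anything in the labels, which also leave unsaid whether different lines derive from different embryos. P-values therefore measure the spread among these lines. WT lines 5 and 6 differed in sex-linked transcripts, given below, in the pattern of embryos of different sex, so their spread is not only technical. The spread between KO lines 2 and 4 may be technical. The labels give the embryonic day and passage as ranges and not by line, and their part in the results was not tested.

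Wnts are secreted lipid-modified glycoproteins that bind Frizzled receptors. With the coreceptors Lrp5 and Lrp6 they block the destruction complex, so that beta-catenin accumulates and acts with Tcf and Lef factors in the nucleus, whereas ligands such as Wnt5a also signal through Ror2 without beta-catenin. R-spondins bind Lgr receptors and keep Frizzled receptors at the cell surface. Secreted frizzled-related proteins and Wif1 bind Wnt ligands, and Dickkopf proteins mostly act on the Lrp coreceptors. In embryonic mesenchyme these genes are known for patterning of limb, skin and skeleton.

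Values are log2 signals relative to the median of the 4 arrays for each probe set, averaged over the probe sets of a gene. The deposited table was centred in this way, so it holds differences between lines but no level of a gene, and no gene's abundance can be set against another's or called absent. With 4 arrays the middle pair of values of a single probe set mirror each other around 0 by construction. Differences are KO minus WT on the log2 scale with the standard error (SE) of the limma fit over all genes, for n = 2 lines per genotype. A gene is called higher or lower at a limma adjusted p under 0.05.

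Several facts of the arrays bear on all results. Phf12, the targeted gene, was lower in the KO by 0.86 on 1 probe set (-0.37 and -0.41 in KO lines 2 and 4, 0.56 and 0.37 in WT lines 5 and 6, limma adjusted p = 0.0213). Its other probe set differed by 0.012. The sources used here do not place either probe set relative to the deletion. WT line 6 stood apart in sex-linked transcripts, with Xist at 6.39 against -0.023 to -0.0079 in the other lines and Eif2s3y at -3.05 against -0.0014 to 0.11. Results of the called members are therefore also given without it. Of 13 fibroblast markers 7 were called lower and 1 higher in the KO (median difference -0.86, at -1.11 and -0.62 in KO lines 2 and 4 relative to the WT mean and 0.090 and -0.090 in WT lines 5 and 6). Of 10 smooth muscle markers 8 were called higher (median 0.79, at 0.81 and 0.77 in the KO lines and -0.10 and 0.10 in the WT lines). Among 12 epithelial markers 3 were called higher and 1 lower. Limma called 0 of 9 macrophage markers (0 at an unadjusted p under 0.05), but their median varied between lines of the same genotype. It stood at 0.083 and 0.99 in KO lines 2 and 4 and at 0.89 and -0.89 in WT lines 5 and 6. The part of these shifts in the results below was not tested, and in bulk RNA fewer cells of a type and less RNA per cell cannot be told apart.

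In the KO lines some Wnt antagonists, ligands and receptors had lower transcript signals, and most members did not pass the test. Limma called 8 of the 38 measured members lower and 1 higher. The called members were 23.7% of those measured, against 12.2% of all genes. By direction this was 21.1% lower against 6.95% of all genes, and 2.63% higher against 5.21% of all genes. The members called lower were the antagonists Sfrp1, Dkk3, Dkk2 and Frzb, the ligand Wnt5b, the R-spondin Rspo2 and the receptors Fzd2 and Ror2, and Wnt5a was the member called higher. Of the members, 10 were at least 1.5-fold lower with both KO lines below both WT lines (26.3%, against 5.53% of all genes), and 0 were at least 1.5-fold higher without overlap, against 4.11% of all genes. In either direction this was 9.64% of all genes. At least 2-fold differences were found in 4 members (10.5%, against 2.81% of all genes), and 3 of these were called (7.89%, against 2.45%). An unadjusted limma p under 0.05 was found for 15 members (39.5%, against 29.5%), 13 lower (34.2%, against 15.2%) and 2 higher (5.26%, against 14.3%). The count of members whose genotypes did not overlap at any size was 21 (55.3%), near the 58.2% of all genes. Of these, 16 were lower (42.1%, against 29.5% of all genes) and 5 higher (13.2%, against 28.7%). The median difference was -0.10 over the members and -0.0027 over all genes, and the median size regardless of sign was 0.150 over the members and 0.152 over all genes.

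**Figure D1:**
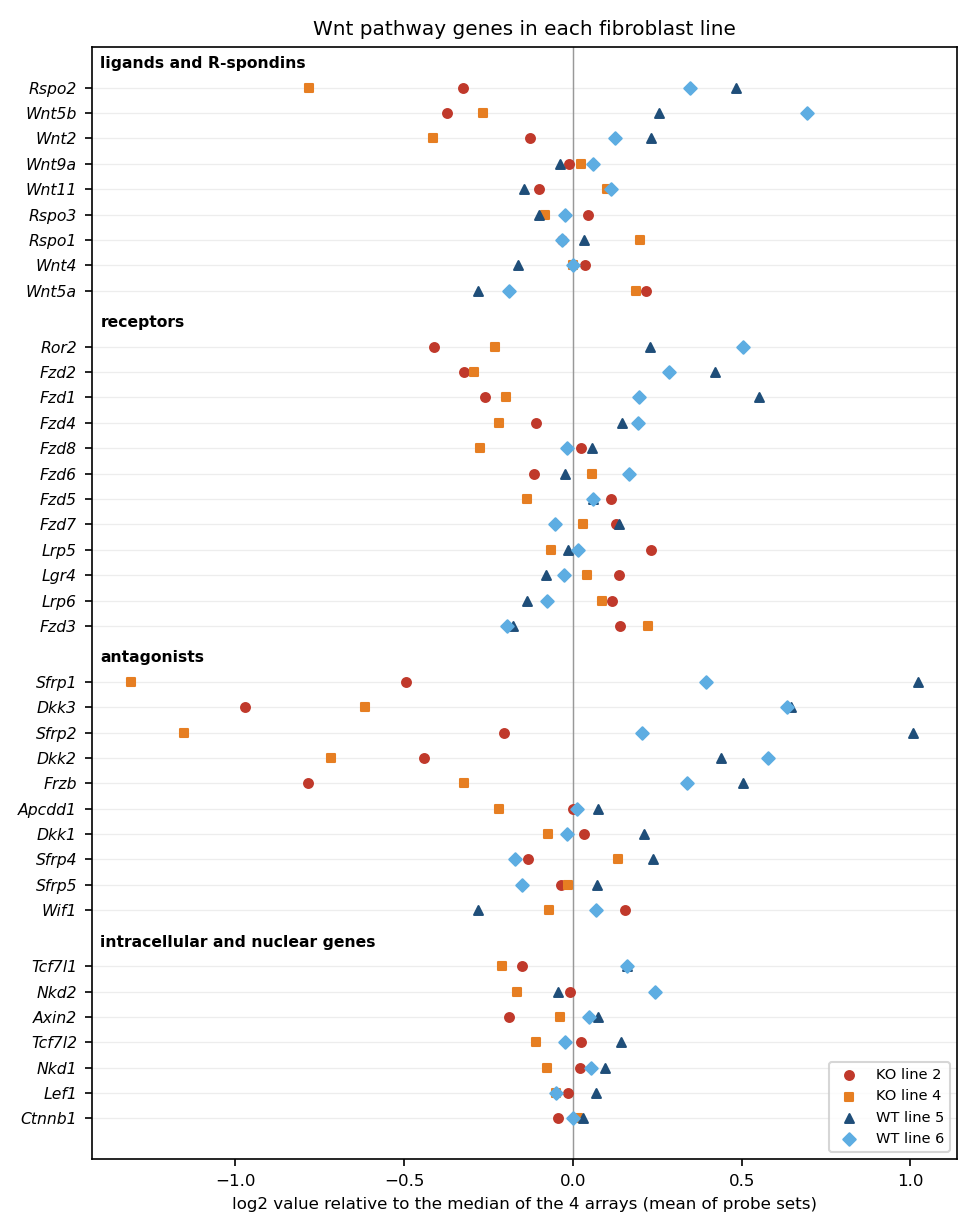
Log2 values of the 38 measured Wnt pathway genes in each line, relative to the median of the 4 arrays and averaged over probe sets, grouped by role and ordered by difference. KO lines 2 and 4 lie left of WT lines 5 and 6 for Sfrp1, Dkk3, Sfrp2, Dkk2 and Frzb, while the lines intermingle near 0 for Ctnnb1 and Lef1.

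Promoter sequence was available for some of the called members and is shown here as a description. Whether these members share a control was not tested. The bases before the annotated start were taken from a set of promoter windows at RefSeq starts (GRCm38.p6). The set available here held windows for 26 of the 39 members and for 4 of the 9 called members, namely Wnt5b, Ror2, Dkk2 and Frzb. Windows of 300 bases, from 250 before to 50 after each start, were searched on both strands for the Tcf/Lef core motifs CTTTGAA and CTTTGAT, which share their first 6 letters and can overlap when they lie on opposite strands. A motif was present in 3 of 35 member windows (8.57%), those of Wnt5b, Wnt11 and Dkk1, against 8.65% of 32851 windows of all genes. The 250 upstream bases of the 4 called members are given 5′ to 3′ on the strand of the gene, with motif letters in capitals. Wnt5b has 3 annotated starts, and the one shown carries CTTTGAT 71 bases before the start, which the windows of its other starts lack. The regions are chr6:119449387-119449636 (minus strand) for Wnt5b, chr13:53286125-53286374 (minus strand) for Ror2, chr3:132085042-132085291 (plus strand) for Dkk2 and chr2:80447397-80447646 (minus strand) for Frzb.
Wnt5b: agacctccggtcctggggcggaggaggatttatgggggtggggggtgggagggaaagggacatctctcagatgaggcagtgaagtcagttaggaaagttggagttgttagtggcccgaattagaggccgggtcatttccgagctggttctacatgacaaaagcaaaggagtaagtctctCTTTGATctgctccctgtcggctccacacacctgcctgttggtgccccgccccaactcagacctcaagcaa
Ror2: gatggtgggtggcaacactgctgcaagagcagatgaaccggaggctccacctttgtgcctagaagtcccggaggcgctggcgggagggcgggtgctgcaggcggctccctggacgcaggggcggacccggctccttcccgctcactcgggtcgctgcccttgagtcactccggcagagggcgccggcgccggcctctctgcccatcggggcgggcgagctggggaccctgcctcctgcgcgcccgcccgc
Dkk2: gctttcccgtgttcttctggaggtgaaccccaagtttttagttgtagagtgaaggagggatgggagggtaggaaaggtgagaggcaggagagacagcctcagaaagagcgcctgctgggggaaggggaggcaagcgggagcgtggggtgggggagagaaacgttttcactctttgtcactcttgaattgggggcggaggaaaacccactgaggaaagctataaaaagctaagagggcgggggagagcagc
Frzb: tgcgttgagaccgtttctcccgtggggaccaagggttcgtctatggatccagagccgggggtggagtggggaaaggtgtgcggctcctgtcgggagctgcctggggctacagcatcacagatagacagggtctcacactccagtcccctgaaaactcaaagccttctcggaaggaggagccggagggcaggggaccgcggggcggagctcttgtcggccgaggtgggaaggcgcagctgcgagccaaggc
The windows of Ror2, Dkk2 and Frzb hold neither motif, so they have no capitals. A match is a description of letters in this window only.

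Among the ligands, the closely related genes Wnt5a and Wnt5b went in opposite directions. Wnt5a, which directs cell movement and polarity in mesenchyme, stood at 0.22 and 0.19 in KO lines 2 and 4 and at -0.28 and -0.19 in WT lines 5 and 6. Both KO lines were high, and the gap between genotypes was 0.38, against at most 0.092 between lines of a genotype. Wnt5a rose 1.35-fold (0.44 ± 0.084 SE, limma adjusted p = 0.0376). Wnt5b, a regulator of cartilage differentiation, stood at -0.37 and -0.27 in the KO lines and at 0.25 and 0.69 in WT lines 5 and 6. The genotypes did not overlap, and WT line 6 was the highest. Wnt5b fell 1.73-fold (-0.79 ± 0.163 SE, limma adjusted p = 0.0426), and its difference was -0.57 without WT line 6. Of the 4 Wnt5a probe sets, 3 were called higher, at 0.45 to 0.75, and the remaining one differed by -0.054. Both Wnt5b probe sets were lower, by -0.61 on the one that was called (limma adjusted p = 0.0266) and by -0.97 on the other (limma adjusted p = 0.123).

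The other 4 Wnts were not called. Wnt2, a ligand of lung and cardiac mesenchyme, stood at -0.13 and -0.42 in the KO lines and 0.23 and 0.13 in the WT lines (-0.45 ± 0.125 SE, limma adjusted p = 0.082), without overlap. Wnt4 (0.10), Wnt9a (-0.0030) and Wnt11 (0.015) had differences whose 95% intervals all held 0 and lay within -0.32 to 0.35. The genotypes overlapped for Wnt9a and Wnt11 and were only 0.0020 apart for Wnt4.

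Of the R-spondins, which amplify Wnt signalling at the receptor, Rspo2 differed and the others did not pass the test. Rspo2, needed for limb and lung development, stood at -0.33 and -0.78 in KO lines 2 and 4 and at 0.48 and 0.35 in WT lines 5 and 6. Line 4 was the lowest, and both KO lines lay below both WT lines. The gene fell 1.96-fold (-0.97 ± 0.17 SE, limma adjusted p = 0.0319). Its probe sets differed in size, with 1 called at -1.80 ± 0.324 SE (limma adjusted p = 0.0375) and the other at -0.14 (limma adjusted p = 0.446). Rspo1 (0.082, 95% interval -0.20 to 0.36) and Rspo3 (0.043, 95% interval -0.19 to 0.28) overlapped between genotypes.

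Among 12 receptors, limma called 2 lower and 0 higher, against 6.95% and 5.21% of all genes. At an unadjusted limma p under 0.05, 4 were lower and 1 was higher, against 15.2% and 14.3% of all genes. Ror2, the receptor tyrosine kinase that binds Wnt5a, stood at -0.41 and -0.23 in KO lines 2 and 4 and at 0.23 and 0.50 in WT lines 5 and 6. Both KO lines were low, so the receptor moved opposite to the ligand gene Wnt5a. Ror2 fell 1.61-fold (-0.69 ± 0.13 SE, limma adjusted p = 0.0363), with both probe sets lower, at -0.73 (called) and -0.64 (not called). Fzd2, a Frizzled receptor that also takes part in Wnt5a signalling, stood at -0.32 and -0.29 in the KO lines and at 0.42 and 0.28 in the WT lines. Its lines of each genotype lay close together, 0.14 apart at most against a gap of 0.58 between genotypes. Fzd2 fell 1.58-fold (-0.66 ± 0.0898 SE, limma adjusted p = 0.0204), with all 3 probe sets lower, at -0.51 to -0.76.

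Fzd1, another Frizzled receptor, lay just outside the call. It stood at -0.26 and -0.20 in the KO lines and at 0.55 and 0.20 in WT lines 5 and 6, 1.52-fold apart without overlap (-0.60 ± 0.138 SE, limma adjusted p = 0.0539). Of its 2 probe sets, 1 was called lower at -0.91 and the other stood at -0.29 (limma adjusted p = 0.242). Fzd1 was called lower after quantile normalisation (-0.57, limma adjusted p = 0.0327), with array weights (limma adjusted p = 0.0468) and with robust eBayes (limma adjusted p = 0.0478). Over all genes these fits called 2664, 2180 and 2344, against 2212 in the main fit. Fzd1 was not called under the other alternatives with all lines (limma adjusted p = 0.0501 to 0.0587). WT line 5 was the highest, and without it the difference was -0.43. Fzd3, known for axon guidance and planar polarity, was the receptor with the largest positive difference (0.37 ± 0.0828 SE, limma adjusted p = 0.0525), at 0.14 and 0.22 in the KO lines and -0.18 and -0.20 in the WT lines. Fzd4 (-0.33, limma adjusted p = 0.0724) was lower in both KO lines than in both WT lines. The remaining Frizzled genes Fzd5 (-0.072), Fzd6 (-0.10), Fzd7 (0.036) and Fzd8 (-0.15) overlapped between genotypes, with 95% intervals that all held 0.

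The coreceptors Lrp5 (0.083, 95% interval -0.23 to 0.40) and Lrp6 (0.21, limma adjusted p = 0.172) were not called, nor was the R-spondin receptor Lgr4 (0.14, 95% interval -0.078 to 0.36). Lrp6 and Lgr4 did not overlap between genotypes, with both KO lines higher. Single probe sets of some receptors gave other answers than their mean. Fzd4 had 1 probe set called lower at -0.84 ± 0.096 SE (limma adjusted p = 0.0189) and its other 2 at -0.14 and -0.027. Fzd7 had 1 probe set at 0.39 and 1 at -0.31, neither of them called. Lrp6 had 1 probe set called higher at 0.54 ± 0.0973 SE (limma adjusted p = 0.0375) and the other at -0.13.

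**Figure D2:**
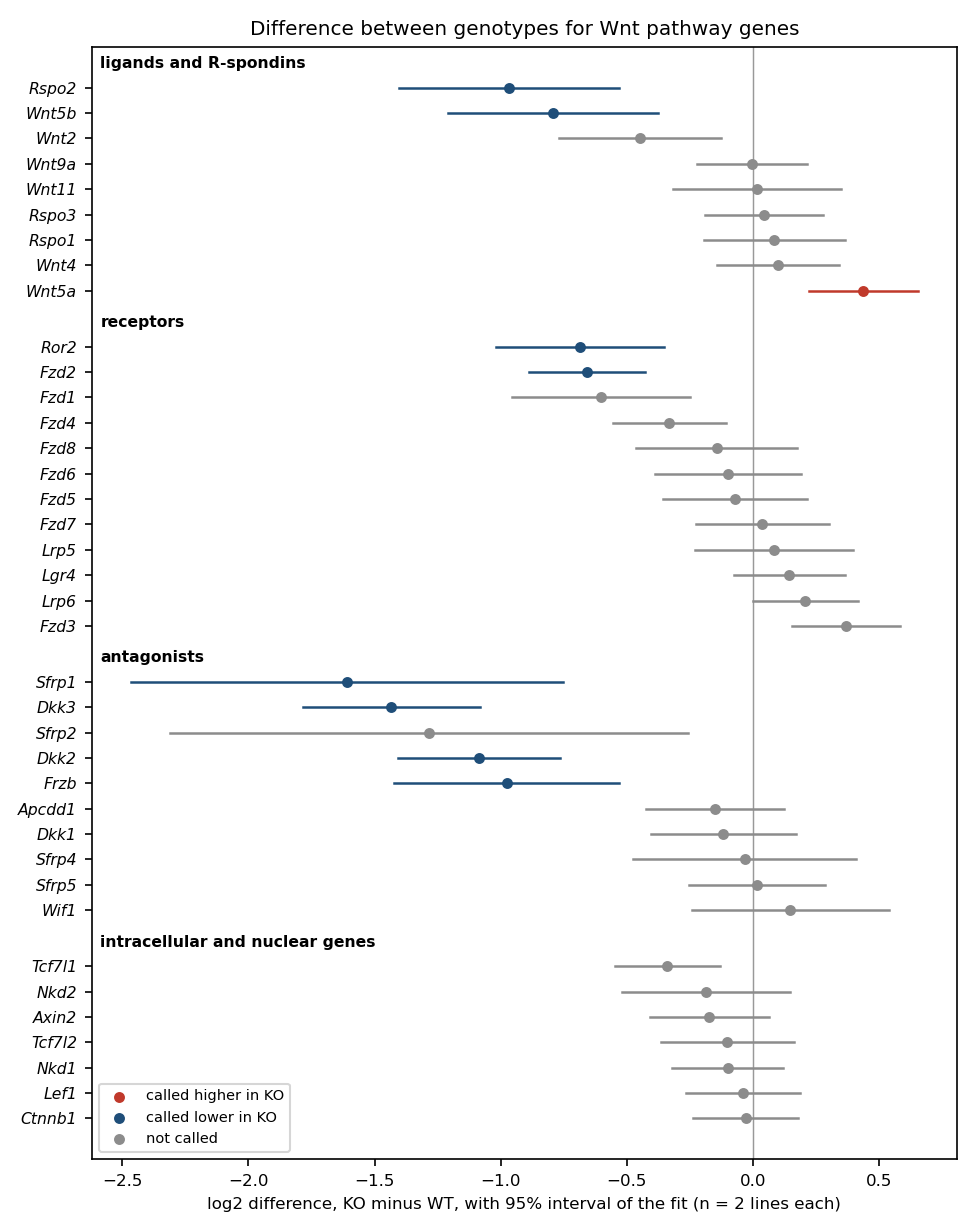
Log2 difference, KO minus WT, of each measured member with the 95% interval of the limma fit (n = 2 lines per genotype), grouped by role and coloured by call. Calls lower in the KO reach -1.61 for Sfrp1, and Wnt5a at 0.44 is the call in the other direction.

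The 5 members with the largest differences were antagonists. Of the 10 antagonists, which are secreted apart from the membrane-bound Apcdd1, limma called 4 lower and 0 higher, against 6.95% and 5.21% of all genes. At an unadjusted limma p under 0.05, 5 were lower and 0 higher, against 15.2% and 14.3% of all genes. The median difference of the 10 was -0.56, at -0.49 and -0.50 in KO lines 2 and 4 and 0.097 and -0.097 in WT lines 5 and 6 relative to the WT mean. Dkk3, a divergent Dickkopf family member, stood at -0.97 and -0.61 in KO lines 2 and 4 and at 0.65 and 0.63 in WT lines 5 and 6. The gap between genotypes, 1.25, exceeded the 0.36 between the KO lines. Dkk3 fell 2.70-fold (-1.43 ± 0.137 SE, limma adjusted p = 0.0144), with both probe sets called, at -1.36 and -1.51. Dkk2, which binds Lrp coreceptors, stood at -0.44 and -0.72 in the KO lines and at 0.44 and 0.58 in the WT lines. Both KO lines were low on its single probe set, and Dkk2 fell 2.12-fold (-1.09 ± 0.125 SE, limma adjusted p = 0.0166). Dkk1, the best-known Dickkopf inhibitor, overlapped between genotypes (-0.12, 95% interval -0.40 to 0.17).

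Sfrp1, a secreted frizzled-related protein of embryonic mesenchyme, stood at -0.49 and -1.31 in KO lines 2 and 4 and at 1.02 and 0.39 in WT lines 5 and 6. Both KO lines were low, line 4 more so, and WT line 5 was the highest. Sfrp1 fell 3.05-fold (-1.61 ± 0.333 SE, limma adjusted p = 0.0435). All 5 probe sets were lower, from -0.81 to -2.87, and the 3 with the smallest differences were the ones called, while the other 2 varied more between lines. On the probe set with the largest difference KO line 4 stood at -3.40 and KO line 2 at -0.31. With the median of the probe sets in place of the mean the difference was -1.03 (limma adjusted p = 0.0302). The call was lost without shared-ending probe sets (-1.75, limma adjusted p = 0.0537), after quantile normalisation (-1.72, limma adjusted p = 0.0679) and with robust eBayes (limma adjusted p = 0.0561).

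Sfrp2, another secreted frizzled-related protein, had the same order of lines as Sfrp1 and was not called. Its single probe set stood at -0.20 and -1.15 in KO lines 2 and 4 and at 1.01 and 0.20 in WT lines 5 and 6, 2.44-fold apart without overlap (-1.28 ± 0.399 SE, limma adjusted p = 0.106). Lines of a genotype differed by up to 0.95, more than the 0.41 between the nearest KO and WT lines. The difference was -0.81 without KO line 4 and -1.76 without KO line 2. Frzb, the secreted frizzled-related protein of cartilage, stood at -0.79 and -0.32 in the KO lines and at 0.51 and 0.34 in the WT lines. Here KO line 2 was the lowest, and the genotypes did not overlap. Frzb fell 1.97-fold (-0.98 ± 0.173 SE, limma adjusted p = 0.0325), with 1 probe set called at -1.20 and the other at -0.75 (limma adjusted p = 0.0786).

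The other antagonists were not called. Sfrp4 (-0.034, 95% interval -0.48 to 0.41), Sfrp5 (0.015, 95% interval -0.25 to 0.28) and Wif1 (0.15, 95% interval -0.24 to 0.54) overlapped between genotypes. Apcdd1, which inhibits Wnt at the cell membrane, differed by -0.15 without overlap (95% interval -0.43 to 0.12). Among the 10 members at least 1.5-fold lower without overlap, KO line 2 was the lowest for 6 and KO line 4 for 4, and WT line 5 was the highest for 7 and WT line 6 for 3.

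**Figure D3:**
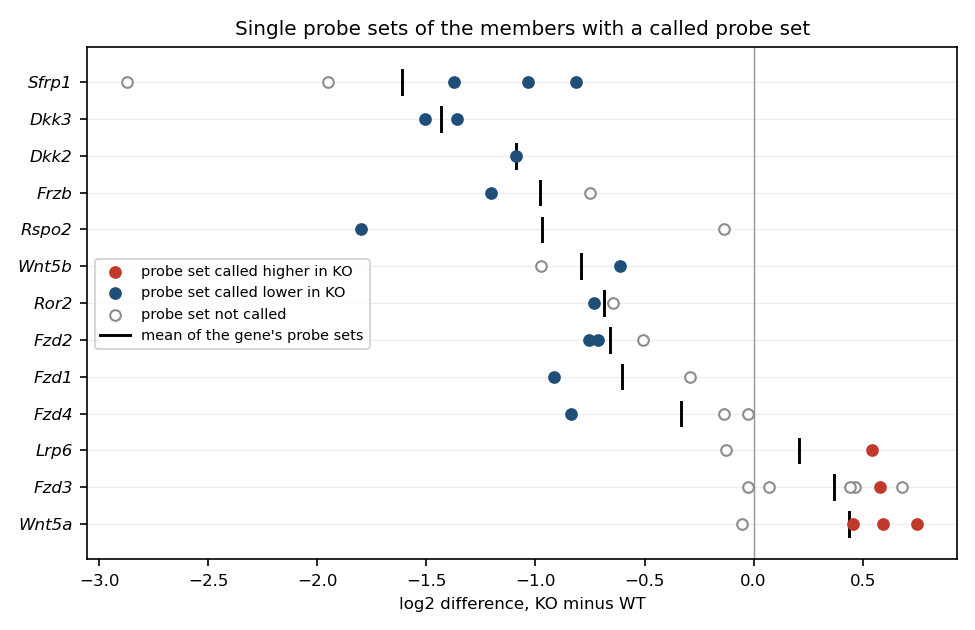
Log2 difference, KO minus WT, of every probe set (circles) of the 13 members with at least 1 called probe set, with the mean of each gene's probe sets as a black bar. The 5 probe sets of Sfrp1 spread from -2.87 to -0.81, and Fzd4 and Rspo2 each have 1 called probe set far from the rest.

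None of the 7 measured intracellular and nuclear members was called by limma, against 12.2% of all genes. At an unadjusted limma p under 0.05, 1 was lower and 0 higher, against 15.2% and 14.3% of all genes. After quantile normalisation 1 was called lower, in a fit that called 2664 of all 18193 genes in either direction, against 2212 in the main fit. Ctnnb1, the beta-catenin gene, stood at -0.043 and 0.015 in KO lines 2 and 4 and at 0.030 and -0.00044 in WT lines 5 and 6, a difference of -0.029 with a 95% interval of -0.24 to 0.18. The negative feedback gene Axin2, a widely used readout of beta-catenin activity, stood at -0.19 and -0.038 in the KO lines and 0.076 and 0.047 in the WT lines. Its difference was -0.17 (95% interval -0.41 to 0.061, limma adjusted p = 0.29). The Dishevelled-binding feedback genes Nkd1 (-0.10) and Nkd2 (-0.19) and the transcription factors Lef1 (-0.040, 95% interval -0.26 to 0.18) and Tcf7l2 (-0.10) were likewise not called. Tcf7l1, a Tcf factor that acts mostly as a repressor, lay closest to the threshold, at -0.15 and -0.21 in the KO lines and 0.16 in each WT line. Its difference was -0.34 ± 0.0806 SE (limma adjusted p = 0.0582), and the gene was called lower after quantile normalisation (limma adjusted p = 0.0485). Differences in all 7 genes were negative, but for Ctnnb1 and Lef1 the sign changed when 1 line was left out.

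At the level of probe sets, 14 of the 91 probe sets of the members were called lower and 5 higher. Of all probe sets, 8.32% were called, 4.4% lower and 3.92% higher. They belonged to 13 members, of which Fzd1, Fzd3, Fzd4 and Lrp6 were not called as genes. Of 30 members with more than 1 probe set, 15 had all of them on the same side of 0 and 15 did not.

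With 1 line left out, each fit had 1 residual degree of freedom. Limma then called 0 members without KO line 2, 0 without WT line 5 and 0 without WT line 6, with 15, 13 and 15 members at an unadjusted p under 0.05. Of all 18193 genes, 3296, 4486 and 5418 were at an unadjusted p under 0.05 in these fits. Without KO line 4 it called 2, Dkk3 (-1.61, limma adjusted p = 0.0315) and Frzb (-1.21, limma adjusted p = 0.0452), with 10 members and 3717 of all genes at an unadjusted p under 0.05. Over all genes these fits called 0 to 321. All 9 called members kept their direction in each of these fits. This was fixed in advance, because their lines did not overlap between genotypes. Without WT line 6, the line that stood apart in sex-linked transcripts, the differences of Sfrp1 (-1.92), Dkk3 (-1.44), Frzb (-1.06), Rspo2 (-1.04), Fzd2 (-0.73) and Wnt5a (0.48) were larger than with all lines. Those of Dkk2 (-1.02), Wnt5b (-0.57) and Ror2 (-0.55) were smaller.

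**Figure D4:**
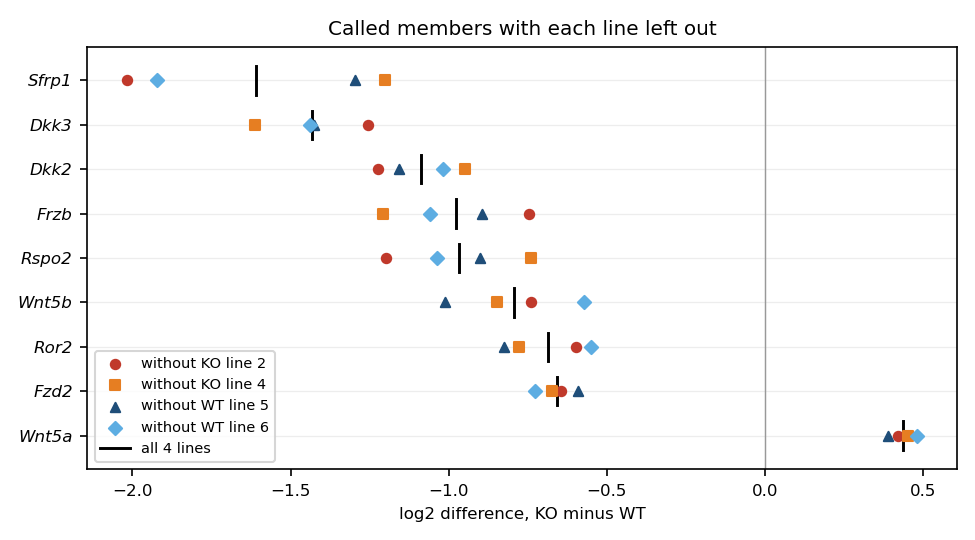
Log2 difference, KO minus WT, of the 9 called members with all 4 lines (black bar) and with each line left out in turn (symbols). The differences of Fzd2 and Wnt5a move little, and those of Sfrp1 range from -2.02 to -1.20.

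Other genes of the pathway, taken from lists written from general knowledge, held calls in both directions. The shares of all genes to set beside each of these lists were 6.95% called lower and 5.21% called higher by limma. At an unadjusted limma p under 0.05 the shares were 15.2% lower and 14.3% higher. Of 14 other Wnt ligands limma called 0. At an unadjusted p under 0.05, 1 was higher and 0 lower. The smallest p-values there were those of Wnt8a (0.28, limma adjusted p = 0.128), Wnt2b (-0.34), Wnt1 (-0.28) and Wnt3 (-0.21). Among 14 further receptors and surface proteins, the glypican gene Gpc3 fell 2.00-fold (-0.996 ± 0.124 SE, limma adjusted p = 0.0184) and its relative Gpc4 rose 1.52-fold (0.60 ± 0.106 SE, limma adjusted p = 0.0319). Lrp4 (-0.48) and the ubiquitin ligase gene Rnf43 (0.64) were not called. Of 9 other extracellular modulators, Igfbp4, an IGF-binding protein that also binds Lrp6 and Frizzled receptors, fell 1.83-fold (-0.87 ± 0.108 SE, limma adjusted p = 0.0182). Cthrc1, a secreted cofactor of Wnt and Ror2, stood at -0.61 (limma adjusted p = 0.0515), and Tpbg (-0.13) and Notum (-0.13) followed.

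For Wnt secretion, 2 of 8 genes rose, the cargo receptor gene Tmed5 (0.45, limma adjusted p = 0.0325) and the retromer subunit Vps26a (0.46, limma adjusted p = 0.0457). Porcn, the acyltransferase that lipidates Wnts, stood at -0.43 (limma adjusted p = 0.0645) and Vps29 at 0.23. Of 25 genes of Dishevelled and the destruction complex, 2 rose and 2 fell. The Dishevelled antagonist Dact1 fell 2.14-fold (-1.10 ± 0.0787 SE, limma adjusted p = 0.0103) and the Apc-binding scaffold Amer1 1.46-fold (-0.55, limma adjusted p = 0.028). Apc itself rose (0.42, limma adjusted p = 0.0493), as did the Axin deubiquitinase gene Usp34 (0.54, limma adjusted p = 0.024).

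Of 21 nuclear partners of beta-catenin, the corepressor genes Ctbp2 (0.52, limma adjusted p = 0.0299) and Tle2 (-0.61, limma adjusted p = 0.0337) went opposite ways, and Tle5 (0.42) and Bcl9 (-0.29) were not called. Among 27 genes known as transcriptional targets of beta-catenin in some tissues, 3 rose and 1 fell, against 5.21% and 6.95% of all genes. The endothelin gene Edn1 rose 2.61-fold (1.38 ± 0.175 SE, limma adjusted p = 0.0185), the Notch ligand gene Jag1 1.92-fold (0.94, limma adjusted p = 0.0315) and Klf5 1.47-fold (0.55, limma adjusted p = 0.0319), while Ccn5 fell (-0.41, limma adjusted p = 0.0487). At an unadjusted limma p under 0.05, 8 of these targets were higher and 3 lower, against 14.3% and 15.2% of all genes. The median of the list was -0.061.

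Of 16 planar cell polarity genes 2 fell and 0 rose (limma, 4 lower and 0 higher at an unadjusted p under 0.05). They were Dchs1 (-0.89 ± 0.0813 SE, limma adjusted p = 0.014) and Fat4 (-0.58, limma adjusted p = 0.0453), a pair of giant cadherins that bind each other across cells. Celsr3 (-0.39) and Prickle2 (-0.29) were not called, and the list's median was -0.15. Among 14 genes of Wnt and calcium signalling, the kinase genes Nlk, which phosphorylates Tcf and Lef factors, and Map3k7, which acts upstream of it, rose 2.26-fold (1.18 ± 0.132 SE, limma adjusted p = 0.0166) and 1.60-fold (0.68 ± 0.1 SE, limma adjusted p = 0.024). Nfatc4 (-0.48) and Camk2d (0.18) were not called.

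**Figure D5:**
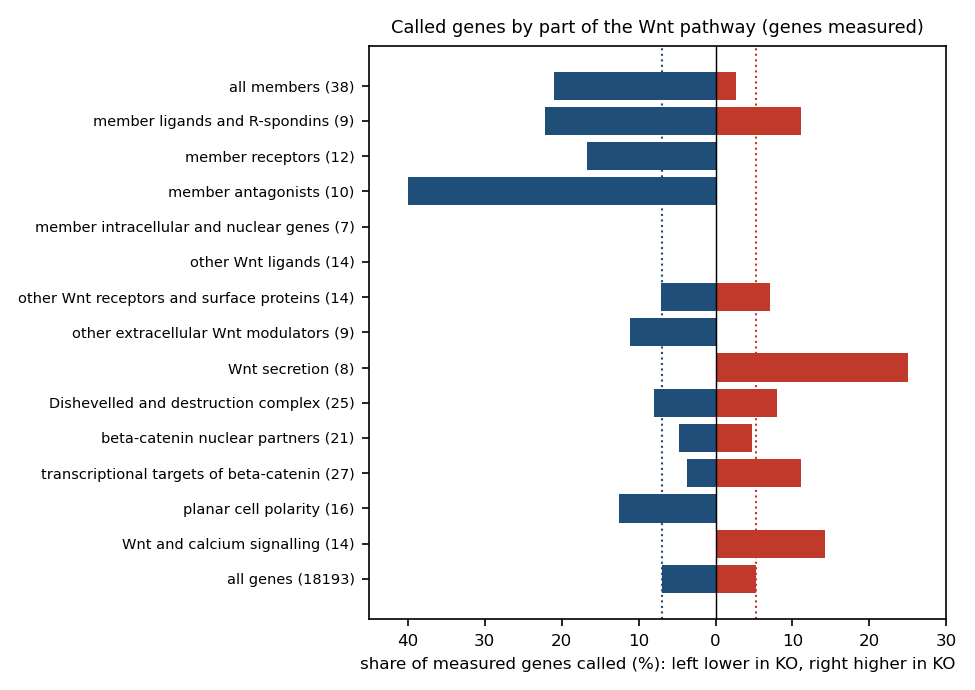
Share of measured genes called lower (left, blue) or higher (right, red) in the KO, in percent, for the members, their roles, the other pathway lists and all genes, with the number of measured genes in brackets and dotted lines at the shares of all genes. The antagonists have the longest bar to the left, with 4 of 10 called lower, against 6.95% of all genes.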

How the data were processed

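Total RNA of 4 lines was biotin labelled and hybridised to 1 Affymetrix array each, per the labels. The series text names a smaller array than the one whose annotation matched the deposited table of 45101 probe sets. The authors deposited log2 values made with Affymetrix Expression Console and RMA, which the submitters' processing notes name. The sources used here give no versions, and the log base was taken from the method. The median of each probe set over the 4 deposited columns was 0 within 1e-06 in 100% of probe sets, so the log2 values had been centred by a step the labels do not describe. Signal over background was not analysed here. Precision is limited by having 4 arrays.

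Control probe sets numbered 64. A single gene was named for 34945 probe sets, several for 932 and none for 9160. Symbols were updated by Entrez identifier against RefSeq (GRCm38.p6), with 34754 matched and no symbol altered. Probe sets naming a single gene were averaged, giving 18193 genes. KO minus WT was fitted over all genes, and separately over all probe sets other than controls, in limma 3.58.1 (lmFit, then eBayes) under R 4.3.3. The fit had 2 residual and 3.04 prior degrees of freedom, and Benjamini-Hochberg adjustment ran over all genes or probe sets tested. The fit was tested on simulated data, drawn independently for each gene with known changes added. Such data cannot show how calls fare under shifts shared by many genes. Alternatives were the median of probe sets, leaving out probe sets with _a_at, _s_at or _x_at endings where a gene had others, quantile normalisation, columns centred on their medians, array weights, robust eBayes and leaving out each line.

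Values by line are given for members called, or not called but at least 1.5-fold apart without overlap, and for some others near the threshold or central to the pathway, chosen after their values were seen. Up to 4 genes with the smallest p are named from each other list. The members and lists were chosen with earlier results of these data known.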

Additional observations from a re-analysis of the deposited data

How the results depend on the processing

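With 1 line left out, limma called 0 to 321 genes over the whole table against 2212 with all lines, 0 members higher against 1, and 0 to 2 members lower against 8, and the members at least 1.5-fold apart without overlap numbered 8 to 10 against 10. Such fits have 1 residual degree of freedom, and the lone line of a genotype is assumed to vary like the other genotype. Leaving out a line cannot make separate genotypes overlap, so the count of 8 to 10 could fall only through the fold size. Under the other 6 alternatives, 221 of 228 member results kept their side of the threshold, 3 lost a call (Sfrp1) and 4 gained one (Fzd1 in 3, Tcf7l1 in 1), and 0 of the called members reversed. The causes were not tested. No paired analysis was possible because the genotypes share no line number. Centred values allow no filter on dim probe sets, and low signal over background limits what a difference near 0 can show.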
